A study of Oryza sativa with 6 samples.

Results

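Sucrose synthase is encoded in rice by 7 genes, SUS1 to SUS7, and all 7 were followed here in young grains of the drw1 mutant and of its wild type ZH11, a japonica cultivar. The members were taken by locus identifier from a table of 39217 gene models: SUS1 is LOC_Os03g28330, SUS2 is LOC_Os06g09450, SUS3 is LOC_Os07g42490, SUS4 is LOC_Os03g22120, SUS5 is LOC_Os04g24430, SUS6 is LOC_Os02g58480 and SUS7 is LOC_Os04g17650. For each of the 7 symbols, RefSeq (assembly ASM3414082v1) held 1 gene, and it lay on the chromosome named in the locus identifier. SUS1 and SUS4 lie on chromosome 3, SUS5 and SUS7 on chromosome 4, SUS2 on chromosome 6, SUS3 on chromosome 7 and SUS6 on chromosome 2. Coordinates are not given because the sources used here name no genome build for the table.

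The samples were whole grains taken 3 days after pollination from paddy-grown plants, 3 RNA libraries from drw1 mutant grains and 3 from wild-type ZH11 grains. The labels name neither the lesion in drw1 nor the number of lines it was studied in. They do not say that each numbered library is a separate plant either, and p-values here reflect library-to-library spread, part or all of which could be technical. The mutant columns of the table carry another prefix than drw1 and were assigned to it because the series holds no other genotype. Library totals ran from 16440923 to 17270099 counts in drw1 and from 15582373 to 24147797 counts in ZH11.

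Sucrose synthase cleaves sucrose with UDP into UDP-glucose and fructose, a reversible reaction in the cytosol. UDP-glucose is a substrate for cellulose and callose and, by way of ADP-glucose, for starch, so the enzyme is regarded as a gateway for imported sucrose in cereal grains. In maize, loss of the endosperm form encoded by shrunken1 gives starch-poor kernels. Among the rice genes, SUS3 and SUS4 are known mainly from the filling grain, SUS1 from elongating tissues, and SUS2 from most organs, while less is known of SUS5, SUS6 and SUS7.

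The main grain form SUS3 was far lower in drw1 than in ZH11, and SUS4 and the low-abundance SUS5 and SUS6 were also lower. SUS1, known from elongating tissues, and the broadly expressed SUS2 were higher. SUS3 made up 6.74% ± 0.146 of the family's RNA in drw1 and 51.2% ± 0.501 in ZH11, whereas SUS1 and SUS2 together made up 87.5% ± 0.386 in drw1 and 40.9% ± 0.650 in ZH11 (SD, n = 3 each, counts per kilobase of gene length). Of the 7 members, 6 had enough reads to be tested, and all 6 passed an adjusted p of 0.05, 2 of them higher and 4 lower in drw1 (edgeR's quasi-likelihood test, Benjamini-Hochberg over 23395 genes). That count has to be read against a transcriptome in which 70.1% of genes tested passed, 35.7% higher and 34.4% lower in drw1. For these 6 members no drw1 library fell within the range of the ZH11 libraries, which was also true of 72.6% of all genes tested.

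**Figure D1:**
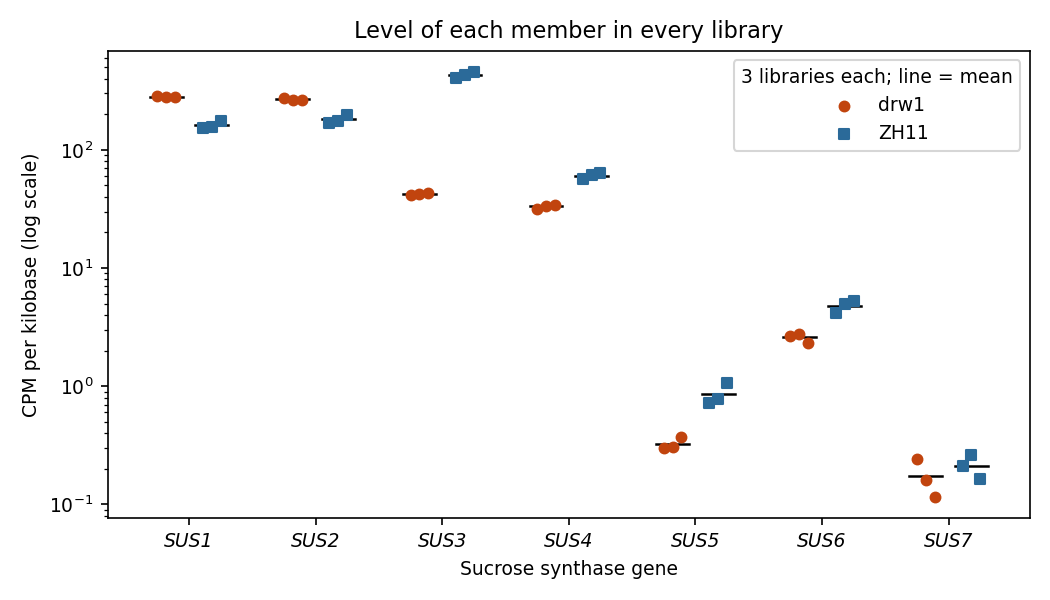
Level of each sucrose synthase gene in CPM per kilobase on a log scale, with 1 point per library (circles drw1, squares ZH11, 3 each) and a line at the mean. SUS3 sits between 41.8 and 42.9 in drw1, against 407 to 456 in ZH11, SUS1 and SUS2 are higher in every drw1 library, and only SUS7 overlaps between the genotypes.

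SUS3, the endosperm form, had the largest change of the 6 tested members. It had 1787, 1791 and 1902 counts in the drw1 libraries, against 18395, 23896 and 16665 counts in the ZH11 libraries. As CPM, the count per 1000000 scaled library counts, these were 102, 103 and 105 CPM in drw1 and 998, 1045 and 1118 CPM in ZH11. Every drw1 library therefore lay far below every ZH11 library, and the drw1 libraries differed from each other by less than the ZH11 libraries did. The log2 fold change of drw1 over ZH11 was -3.35 (95% interval -3.48 to -3.21; edgeR's quasi-likelihood test, adjusted p = 8.5e-17), a 10.2-fold lower level. Of all genes tested, 299 (1.28%) had a lower log2 fold change than SUS3. Ranked by level per kilobase among loci with at least 1 read, SUS3 stood at place 3118 of 29125 in drw1 and at place 136 of 29427 in ZH11.

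Summed levels of other gene groups of the grain were also lower in drw1, by differing amounts. The median log2 fold change was -5.51 for storage protein loci, -0.96 for green tissue loci and -0.32 for nucellus and embryo loci. SUS3 stood at -3.35, and 34.4% of all genes tested passed as lower in drw1. Of loci assigned to seed storage proteins, which mark the endosperm, 9 of 10 listed were in the table, 8 were tested and 8 fell. The 9 summed to 7.43 to 8.19 CPM in drw1 libraries and 251 to 267 CPM in ZH11 libraries. Each of the 9 had reads in both genotypes, but some had few in drw1. The tested locus with fewest had 6 counts in drw1 and 342 counts in ZH11. Such loci passed the low-count filter through ZH11 alone and could only be called lower. The number that fell and the median are therefore description, not a test. Loci assigned to Rubisco small subunits and light-harvesting proteins, which mark green pericarp and husk, summed to 1052 to 1135 CPM in drw1 and 1821 to 2090 CPM in ZH11, with 9 of 10 tested loci lower, 1 higher and none at 0 in either genotype. A short list for nucellus and embryo, 3 loci of which 2 were tested, 1 fell and none was at 0, summed to 91.0 to 93.0 CPM in drw1 and 123 to 139 CPM in ZH11. The part of these tissues in the change of SUS3 was not tested, and in whole grains fewer cells of a type and less RNA per cell cannot be told apart.

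SUS4, the other form known from the filling grain, also fell, with a smaller log2 fold change than SUS3. Its level was 89.0, 94.0 and 96.0 CPM in drw1, against 158, 171 and 178 CPM in ZH11. The genotypes did not overlap, and the log2 fold change was -0.86 (95% interval -0.999 to -0.72; edgeR's quasi-likelihood test, adjusted p = 3.4e-09). Falls of this size were common: 17.3% of genes tested had a lower log2 fold change than SUS4. The ratio of SUS3 to SUS4, each per kilobase, was 1.25 to 1.31 in drw1 libraries and 6.98 to 7.20 in ZH11 libraries. On the log2 scale this ratio differed by -2.49 between drw1 and ZH11, with no overlap and an exact two-sided permutation p of 0.1, the smallest that 3 against 3 libraries allow.

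SUS1 and SUS2 rose in drw1. SUS1, the form of elongating tissues, reached 1064, 1047 and 1060 CPM in drw1, against 578, 587 and 664 CPM in ZH11, and its log2 fold change was 0.79 (95% interval 0.67 to 0.92; edgeR's quasi-likelihood test, adjusted p = 3.2e-09). The broadly expressed SUS2 reached 918, 876 and 879 CPM in drw1, against 567, 588 and 659 CPM in ZH11, and its log2 fold change was 0.56 (95% interval 0.43 to 0.69; edgeR's quasi-likelihood test, adjusted p = 4.2e-07). For both genes the lowest drw1 library was above the highest ZH11 library. Rises of this size were common: 17.0% of genes tested had a higher log2 fold change than SUS1 and 24.2% a higher one than SUS2. By level per kilobase, SUS1 stood at place 238 in drw1 and 606 in ZH11, and SUS2 at place 263 in drw1 and 512 in ZH11.

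SUS1 had the larger log2 fold change of the pair. Their ratio per kilobase was 1.03 to 1.07 in drw1 libraries and 0.884 to 0.904 in ZH11 libraries, so SUS1 was above SUS2 in 3 of 3 drw1 libraries and below it in 3 of 3 ZH11 libraries. The difference in the log2 ratio was 0.23, small beside that of SUS1 to SUS3, which was 4.14 (exact permutation p = 0.1 for each). Because the genes differ in deposited length, 3758 bases for SUS1 and 3330 for SUS2, the place of the ratio above or below 1 depends on those lengths, while the difference between genotypes does not.

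SUS6, a member of low abundance, had 119, 122 and 106 counts in drw1 and 194, 291 and 199 counts in ZH11. In CPM this was 6.57 ± 0.624 in drw1 and 12.2 ± 1.49 in ZH11 (SD, n = 3 each), a log2 fold change of -0.89 (95% interval -1.18 to -0.60; edgeR's quasi-likelihood test, adjusted p = 1.6e-05). Its log2 fold change lay close to that of SUS4, and 16.6% of genes tested had a lower one than SUS6. The ratio of SUS4 to SUS6 per kilobase was 11.9 to 14.9 in drw1 and 12.1 to 13.6 in ZH11, and these ranges overlapped (exact permutation p = 0.9), which does not show that the genes changed by the same amount.

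SUS5 and SUS7 were close to the limit of the depth. SUS5 had 15, 15 and 19 counts in drw1 and 38, 51 and 45 counts in ZH11, all above the floor of 3 counts that a library without a read would allow. Its log2 fold change was -1.37 with a wide 95% interval of -1.98 to -0.77 (edgeR's quasi-likelihood test, adjusted p = 0.00039). Of genes tested, 9.96% had a lower log2 fold change than SUS5. SUS7 had 12, 8 and 6 counts in drw1 and 11, 17 and 7 counts in ZH11, too few to pass the filter on low counts. Its genotypes overlapped, and the ratio of drw1 to ZH11 from the summed counts, scaled to the libraries, was 0.789 with an exact 95% counting interval of 0.456 to 1.35. That interval covers counting error only and is not a limit of detection, and a difference in SUS7 could be missed at this depth.

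**Figure D2:**
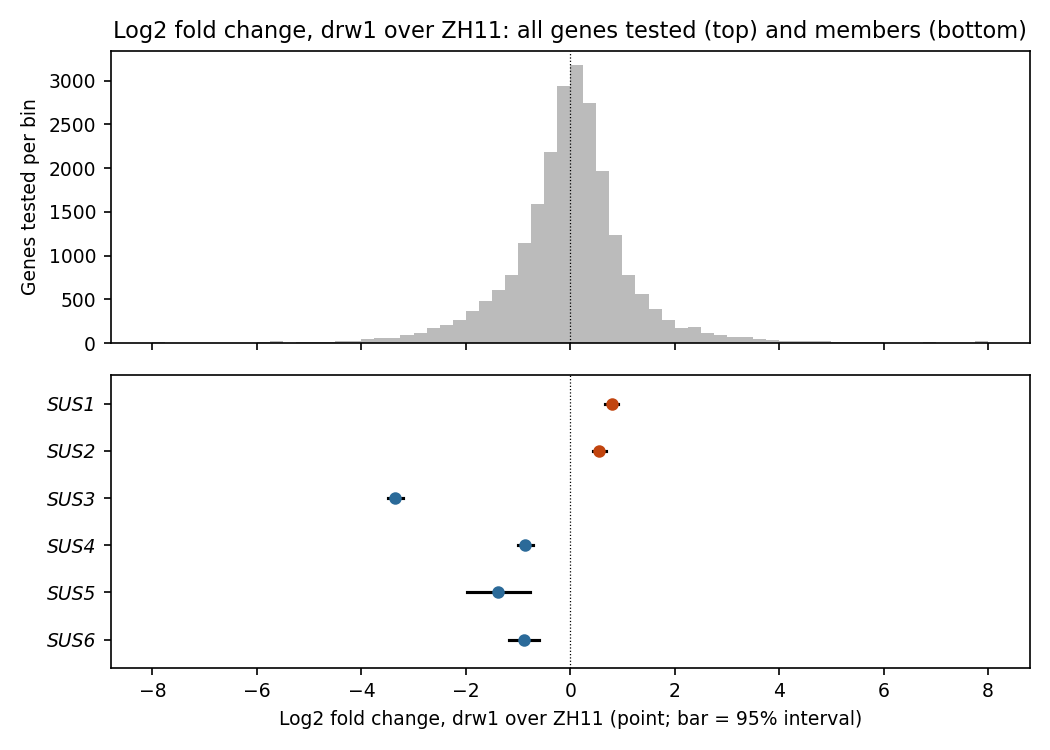
Log2 fold change of drw1 over ZH11: the upper panel counts all 23395 genes tested in bins of 0.25, with values beyond -8 or 8 placed in the end bins, and the lower panel gives the 6 tested sucrose synthase genes with 95% intervals (SUS7 was not tested). SUS3 at -3.35 lies in the left tail, while SUS1 at 0.79 and SUS2 at 0.56 lie within the bulk of genes.

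The order of the members differed at the top. In drw1 it ran from SUS1 (281 CPM per kilobase) and SUS2 (268) to SUS3 (42.3), SUS4 (33.3), SUS6 (2.59), SUS5 (0.325) and SUS7 (0.173), and no neighbours in this order overlapped over the 3 libraries. In ZH11 it ran from SUS3 (430 CPM per kilobase) to SUS2 (182), SUS1 (162), SUS4 (60.4), SUS6 (4.80), SUS5 (0.856) and SUS7 (0.212). There the ranges of SUS2 and SUS1 overlapped, 170 to 198 for SUS2 and 154 to 177 for SUS1, although SUS2 was above SUS1 within 3 of 3 libraries; the other neighbours did not overlap. The lower end of the order, from SUS4 through SUS6 and SUS5 to SUS7, was the same in both genotypes.

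Shares of the family total are free of library scaling. SUS1 had a share of 44.8% ± 0.269 in drw1 and 19.3% ± 0.369 in ZH11, a difference of 25.5 percentage points. SUS2 had 42.6% ± 0.649 in drw1 and 21.6% ± 0.312 in ZH11, a difference of 21.0 points. The share of SUS3 ran from 6.57% to 6.85% in drw1 libraries and from 50.6% to 51.6% in ZH11 libraries, a difference of -44.5 points. Shares in a library add up to a whole, so a lower share of SUS3 by itself raises the shares of the others. In level, SUS2 stood at 268 CPM per kilobase in drw1 and 182 in ZH11. All members but SUS3 together stood at 585 in drw1 and 410 in ZH11.

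The remaining members held small shares that were mostly lower in drw1. SUS4 had 5.31% ± 0.259 in drw1 and 7.20% ± 0.170 in ZH11. SUS6 had 0.412% ± 0.0396 in drw1 and 0.571% ± 0.0433 in ZH11, and SUS5 had 0.0518% ± 0.00623 in drw1 and 0.101% ± 0.0143 in ZH11 (SD, n = 3 each, for all shares). For these 6 members the genotypes did not overlap (exact two-sided permutation p = 0.1 each, adjusted p = 0.117 over the 7 members), while SUS7, at 0.0275% ± 0.00976 in drw1 and 0.0254% ± 0.00669 in ZH11, overlapped (exact permutation p = 0.9). With 3 against 3 libraries no share could pass a threshold of 0.05. The shares are tied to each other and are not separate results. Of all genes tested, taken singly by CPM, 72.6% did not overlap. Taken over raw counts instead of counts per kilobase, the share of SUS3 was 4.81% in drw1 and 43.0% in ZH11.

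**Figure D3:**
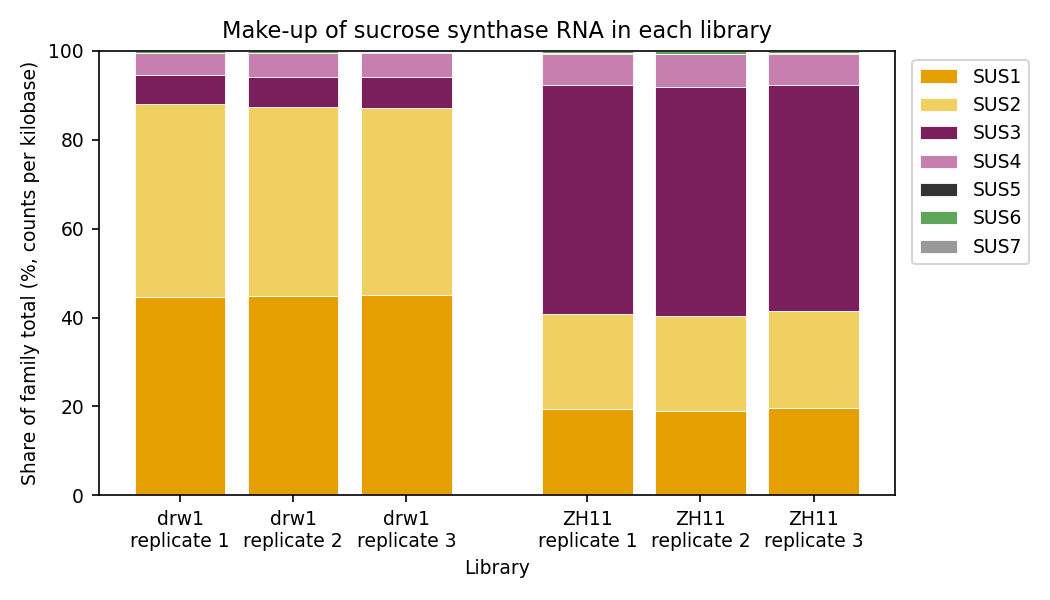
Make-up of sucrose synthase RNA in each library, as the percentage of the family's counts per kilobase held by each gene, with drw1 libraries on the left and ZH11 libraries on the right. SUS3 holds 6.57% to 6.85% of each drw1 bar and 50.6% to 51.6% of each ZH11 bar, and SUS1 and SUS2 fill most of the rest.

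Members were also compared pair by pair. Of the 21 pairs of members, 16 had log2 ratios that did not overlap between genotypes (exact permutation p = 0.1 each, adjusted p = 0.131 over the 21 pairs). The pairs share the same 7 genes and are not separate results. Of all genes tested, taken singly, 72.6% did not overlap, and pairs of other genes were not counted. The 5 pairs that overlapped were SUS4 with SUS6, SUS5 with SUS6, and SUS7 with SUS2, SUS4 or SUS5. These log2 ratios had 0.5 counts added. Without that addition SUS6 with SUS7 also overlapped, at 11.1 to 19.8 in drw1 and 19.2 to 31.9 in ZH11. SUS1 was 6.58 to 6.78 times the level of SUS3 in drw1 libraries and 0.366 to 0.387 times in ZH11 libraries. SUS2 was 6.15 to 6.60 times the level of SUS3 in drw1 and 0.414 to 0.434 times in ZH11.

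Summed over the 7 members, sucrose synthase RNA was lower in every drw1 library than in any ZH11 library, by less than SUS3 alone. The total was 628 ± 7.66 CPM per kilobase in drw1 and 840 ± 55.3 in ZH11 (SD, n = 3 each), 25.3% lower, with no overlap (exact two-sided permutation p = 0.1, the smallest possible). SUS3 itself was lower by 388 CPM per kilobase, and SUS1 and SUS2 together were higher by 205, which is 52.9% of that amount. That percentage rests on the deposited lengths and is larger in CPM, without division by length. In CPM, SUS3 averaged 104 in drw1 and 1054 in ZH11, SUS1 1057 in drw1 and 609 in ZH11, and SUS2 891 in drw1 and 605 in ZH11. Without SUS3, the other 6 members summed to 585 ± 7.92 CPM per kilobase in drw1 and 410 ± 30.8 in ZH11 (exact permutation p = 0.1). The size of the difference in the total depended on the scale: it was 12.2% over counts not divided by length and 16.8% with library totals alone as scaling, and the genotypes did not overlap on either scale.

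The ZH11 libraries were spread more widely than the drw1 libraries for the abundant members. In ZH11, replicate 3 had the highest CPM of 6 members, all but SUS7. The coefficient of variation of SUS3 was 1.36% between drw1 libraries, against 2.34% from counting alone, and 5.76% between ZH11 libraries, against 0.713% from counting alone. For SUS1 it was 0.867% in drw1 and 7.74% in ZH11.

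The neighbouring steps of sucrose use were described with lists of loci assigned to them by symbol. Loci are said to rise or fall in drw1 where the adjusted p was under 0.05 (edgeR's quasi-likelihood test). Of all genes tested, 70.1% passed that threshold, 35.7% higher and 34.4% lower in drw1. Among 10 tested invertases, which split sucrose into glucose and fructose, 4 rose and 5 fell, with a median log2 fold change of -0.20. Their summed level went the other way: the 12 invertase loci reached 491 to 495 CPM in drw1 libraries and 455 to 464 CPM in ZH11 libraries. Among 14 tested loci for enzymes of hexose and UDP-glucose use (UDP-glucose pyrophosphorylases, fructokinases, hexokinases and a phosphoglucomutase), 3 rose and 10 fell, with a median of -0.44. Of those that rose, 1 had 48 counts in drw1 and 3 counts in ZH11. It passed the low-count filter through drw1 alone and could only be called higher. With at least 1 CPM required in every library, it was not tested and 2 of 13 loci rose. This list summed to 1037 to 1072 CPM in drw1 and 1681 to 1713 CPM in ZH11. All 7 loci for ADP-glucose supply, the pyrophosphorylase subunits and the plastid transporter, fell, with a median of -1.09 and a range of -6.17 to -0.63. They summed to 467 to 481 CPM in drw1 and 1403 to 1414 CPM in ZH11.

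Loci that make or carry sucrose were also mostly lower. Among 7 loci for sucrose synthesis (sucrose phosphate synthases and phosphatases), 5 fell and 1 rose, with a median of -0.69. Among 4 tested sucrose transporters, 3 fell and 1 rose, with a median of -0.60. Over all genes tested, 8356 rose, 8039 fell and the median was 0.03 on the log2 scale, while the 6 tested sucrose synthase genes had a median of -0.88. No list was compared with another list, or with the remaining genes, by a test.

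**Figure D4:**
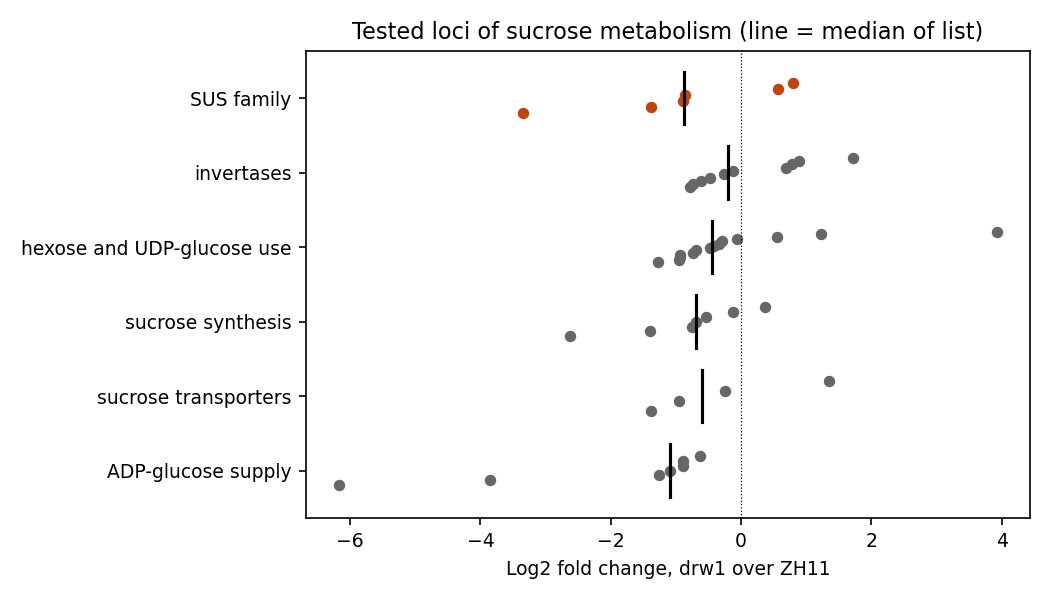
Log2 fold change of drw1 over ZH11 for each tested locus in 6 lists of sucrose metabolism, with 1 point per locus and a line at the list's median. The sucrose synthase points spread from -3.35 to 0.79 and the ADP-glucose supply points all lie below 0.

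SUS3 had the highest mean level per kilobase over the 6 libraries pooled (236, against 225 for SUS2 and 222 for SUS1), though not within drw1 and not in CPM, where SUS1 averaged 1057 in drw1 and 609 in ZH11, and SUS3 104 in drw1 and 1054 in ZH11. By the rule for naming genes, those most like SUS3 were sought by the Pearson correlation of log2 CPM, with 0.5 CPM added before the logarithm. The closest of 17284 genes with at least 5 CPM on average was LOC_Os08g06010 (r = 0.99996 over 6 libraries), with 51.5, 52.4 and 52.5 CPM in drw1, against 757, 774 and 838 CPM in ZH11. Next was LOC_Os02g15150 (r = 0.99991), one of the loci assigned to storage proteins, with 0.573, 0.634 and 0.608 CPM in drw1, against 25.4, 26.3 and 28.4 CPM in ZH11. It met the average of 5 CPM through ZH11 alone, and the added 0.5 CPM is close in size to its drw1 level, so its r depends on that addition. The files pair neither locus with a name. In all, 1776 genes had r above 0.99 with SUS3, and all 6 points share the split by genotype.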

How the data were processed

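RNA from whole grains of drw1 and ZH11 was sequenced, 3 libraries each. The authors deposited whole-number counts per gene model, not normalized, with a gene length in bases. The submitters' processing notes list fastp, HISAT2, featureCounts and DESeq. Versions, build, annotation, strandedness and the rule for reads matching more than 1 place were not found in these sources, so reads from similar stretches of the sucrose synthase genes could be lost or split, and what part of a transcript the length covers is unknown.

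CPM was computed with TMM-scaled library sizes, and levels were divided by length in kilobases. Genotypes were compared by edgeR's two-sided quasi-likelihood test (edgeR 4.0.16, R 4.3.3), fitted to genotype alone after the package's default low-count filter, at a Benjamini-Hochberg adjusted p of 0.05. The fit was first tested on simulated counts with 200 changed genes. That is far fewer than the 16395 called here, so the simulation does not cover so wide a change. Intervals of fold changes rest on standard errors worked back from the F statistic and are approximate. Counting intervals (exact binomial) and the floor of 3 counts (0.166 to 0.173 CPM in drw1, 0.131 to 0.201 CPM in ZH11) cover counting error only. Family totals, shares and log2 ratios (0.5 counts added) were compared with exact permutation tests.

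Alternatives were other scalings and filters, DESeq2 1.42.0, limma-voom (limma 3.58.1), the replicate number as a block and leaving out each library. All 7 members are named, with the 2 genes most correlated with the member of highest mean level per kilobase over all libraries (at least 5 CPM). The members and lists were chosen with earlier results of these data known. List loci were written from memory as pairs of symbol and locus and are assignments, since 0 identifiers of the table are in the reference gene table. A planned promoter motif search was not run, and sequences are not used here.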

Additional observations from a re-analysis of the deposited data

How the results depend on the processing

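Across the 14 alternative fits, 2 members were higher in each and 4 lower in each, except that 3 were lower with the stricter filter (at least 1 CPM in every library), under which SUS5 was not tested. The log2 fold change ran from -3.39 to -3.19 for SUS3, from 0.75 to 0.95 for SUS1, from 0.51 to 0.72 for SUS2, from -0.91 to -0.70 for SUS4, from -0.99 to -0.74 for SUS6 and from -1.48 to -1.21 for SUS5, whose largest adjusted p was 0.0027 (edgeR, DESeq2 or limma); no call was lost. The median of all genes was 0.03 in the main comparison, 0.19 with library totals alone and 0.14 with upper-quartile factors. The replicate number as a block gave -3.35 for SUS3 and called 15505 genes against 16395. It changed no call of a member and no number of calls in the lists of sucrose metabolism. Deviations of same-numbered libraries from their genotype means correlated at -0.12, 0.02 and -0.10, so the numbers were not taken to pair the libraries.

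The log2 ratio of the family total was -0.42, with -0.19 over counts not divided by length, -0.26 with library totals and -0.46 to -0.37 without 1 library. The difference in the share of SUS7 (0.00210 percentage points, drw1 minus ZH11) reversed to -0.00197 over raw counts and ran from -0.00310 to 0.00657 without 1 library, and rests on 26 counts in drw1 and 35 in ZH11. SUS7 was tested in 5 alternatives, with adjusted p (edgeR) of 0.43 to 0.86. Numbers of calls in the lists of sucrose metabolism stayed within 2 loci of those given, and the cause was not tested. The lists for endosperm, green tissue, and nucellus and embryo were not counted again under the alternatives.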
